A study of Capra hircus with 29 samples.

Results

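Oocytes from medium follicles (HMO) were compared with oocytes from small follicles (HSO) of high fertility Ji'ning grey goats, a Chinese goat breed known for large litters. The question was which mRNAs differ between an earlier and a later stage of follicle growth. There were 5 HMO libraries (replicates 1 to 5) and 4 HSO libraries (replicates 1, 3, 4 and 5), which make up 9 of the 29 oocyte libraries of the series. By the labels, high fertility goats had more than 3 kids in a litter. The other libraries came from oocytes of large follicles of the high fertility population (HLO, 5 libraries) and from all 3 follicle sizes in low fertility goats (LSO, LMO and LLO for small, medium and large, 5 libraries each). By the labels, low fertility goats had fewer than 2 kids in a litter. The study's methods instead set the bounds at 3 or more kids for high and 2 or fewer for low fertility. No treatment and no ages are given in the sources used here. Granulosa cells were removed mechanically, and mRNA was enriched on oligo(dT) beads. By the study's methods, the oocytes of a stage from all high fertility goats were put together and then divided into samples of a few oocytes. The libraries of a group are therefore draws from 1 collection and not separate animals, and p-values measure only the spread between these draws, which may be technical. Of 21343 genes in the table, 8240 had a value over 0.5 FPKM in at least 4 of the 9 libraries and were tested. FPKM are fragments per kilobase of transcript scaled to the number of mapped fragments, and they do not carry the read depth, so no counting interval was computed.

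A growing oocyte builds the store of mRNA, ribosomes and mitochondria on which the first divisions of the embryo depend, and it lays down the zona pellucida, a coat of ZP glycoproteins. It also secretes GDF9 and BMP15, which act on the surrounding granulosa cells. Transcription declines towards the end of oocyte growth, and later control acts largely on stored mRNA and on its poly(A) tail. Enrichment on oligo(dT) beads keeps mRNA that carries such a tail.

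The expression limit lay in a dense range of values. 454 genes were over 0.5 FPKM in exactly 4 of the 9 libraries, and 481 genes were over it in 3. The fourth highest value was 0.500068 FPKM in the gene just inside the limit and 0.499948 FPKM in the gene just outside. 5956 of the 8240 genes were over 0.5 FPKM in all 9 libraries. 80 tested genes were over 0.5 FPKM in HMO libraries only and 7 in HSO libraries only.

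One library stood apart from its group. In a principal component analysis of log2(FPKM + 1) over the genes tested, PC1 held 55.6% and PC2 17.9% of the variance. PC1 did not follow the follicle stage: the difference of mean scores was 10.6 (exact permutation p = 0.738, two-sided, 126 assignments, smallest possible p 0.00794). On PC2 the scores of HMO 1, 3, 4 and 5 lay between -29.3 and -20.5 and those of HSO between 16.8 and 24.3. HMO 2 scored 22.3 on PC2, inside the HSO range. The PC2 difference had an exact permutation p of 0.0317 and an adjusted p of 0.143 over 9 sample measures, and it was no longer under 0.05 in 7 of the 9 leave-one-out repeats. The main counts and the separated genes with the largest changes are therefore read with and without HMO 2.

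**Figure D1:**
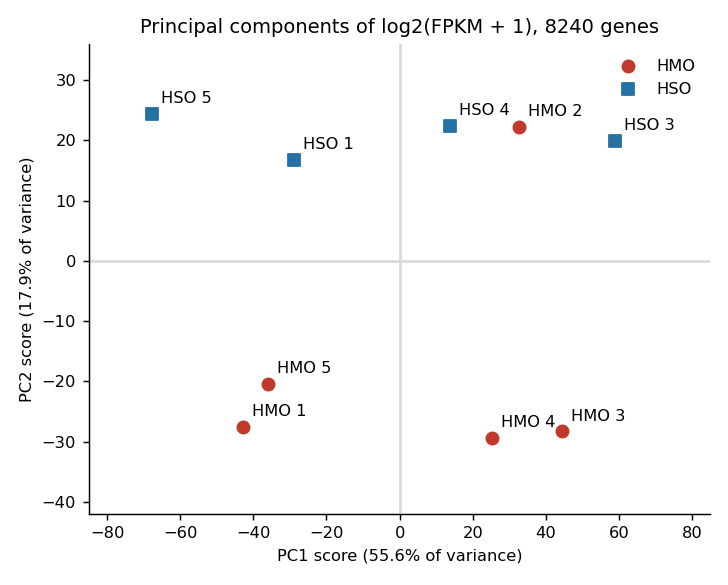
Scores of the 9 libraries on PC1 (horizontal) and PC2 (vertical) of log2(FPKM + 1), with HMO as red circles and HSO as blue squares. Replicates 1 and 5 of both stages lie to the left, and HMO 2 lies at 22.3 on PC2 among the HSO libraries while the other HMO libraries lie at -20.5 or lower.

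The deviations of same-numbered libraries from their group means correlated across genes with r of 0.61, 0.73, 0.28 and 0.66 for numbers 1, 3, 4 and 5, all above 0. The match was not specific for every number, since HMO 1 correlated as well with HSO 5 (r = 0.61), HMO 4 more with HSO 3 (r = 0.34) than with HSO 4, and HSO 4 more with HMO 2 (r = 0.39) and HMO 3 (r = 0.29) than with HMO 4. The labels do not say what a number stands for. A column named for a replicate 2 of HSO was not analysed here because no sample label matched it, so HMO 2 has no partner and a fit with the replicate number as a block takes nothing from it. No difference was detected in the number of genes over 0.5 FPKM, which was 7425 to 8384 in HMO (median 7532) and 8130, 7102, 7980 and 8452 in HSO 1, 3, 4 and 5 (exact permutation p = 0.786). Their summed FPKM was 395190 to 490048 over the 9 libraries. The distance of a library from the centroid of its group averaged 50.0 ± 7.92 (SD, n = 5) for HMO and 51.9 with an SD of 18.95 over 4 libraries in HSO (exact permutation p = 0.929). Spearman correlations of expression were as high between the groups (median 0.886) as within HMO (0.883) or HSO (0.887).

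PAX6 was higher in the oocytes of medium follicles after adjustment over all genes. In the fit of all 9 libraries without a block, SLC16A11 and HYPK were also higher in HMO, by unadjusted limits only. By the same limits YEATS4, ACSM4 and 11 of the 13 mitochondrially encoded genes were higher in HSO. With the replicate number as a block, these 4 named genes and 12 of the 13 passed an adjusted limma p of 0.05. That pairing was taken from these data and not from the labels, and the blocked fit takes nothing from HMO 2. The blocked p-values hold only if the numbers do pair libraries across stages. A set of genes that includes ribosomal protein copies, HSD17B2 and DPP4 was high in 4 of the 5 HMO libraries, and across the series its level followed neither stage nor population. Genes of oocyte identity such as GDF9, BMP15 and the ZP family overlapped between the stages. Genes were counted by an unadjusted limma p under 0.05 with a log2 fold change of FPKM + 1 over 1 in size, called here the counting limits. By these limits 151 genes were higher in HMO (1.83% of those tested) and 45 were higher in HSO (0.546%). Without HMO 2 these counts were 219 and 53, and without HSO 3 they were 140 and 150. Of the 151 genes, 37 were over 0.5 FPKM in HMO libraries only, and of the 45 genes 0 were over it in HSO libraries only. Those 37 passed the expression limit only through the group where they were high, so their calls are a description. 519 genes (6.30%) had an unadjusted p under 0.05. After Benjamini-Hochberg adjustment over the 8240 genes 1 gene, PAX6, passed 0.05 (0.0121%). The median log2 fold change of all genes was -0.10, so changes are read against a value slightly below 0. With the replicate number as a block, the limma fit passed 429 genes at an adjusted p under 0.05 (5.21%), 335 higher in HMO (4.07%) and 94 higher in HSO (1.14%). In that fit the counting limits gave 262 genes higher in HMO (3.18%) and 77 higher in HSO (0.934%). Without HMO 2 and without a block 136 genes passed (1.65%). Leaving out any other library left 0 genes at an adjusted p under 0.05 by limma, with 374 to 712 genes at an unadjusted p under 0.05.

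PAX6, a paired-box transcription factor known from eye, brain and pancreas development, was low in both stages but clearly separated. Its FPKM in HMO 1 to 5 were 3.33, 2.41, 2.97, 2.67 and 4.12, and in HSO 1, 3, 4 and 5 they were 0.413, 0.587, 0.328 and 0.309. Every HMO library, HMO 2 included, lay above every HSO library. The log2 fold change was 1.53 with an SE of 0.18 and a 95% interval of 1.13 to 1.93 (limma adjusted p = 0.0415). The blocked fit gave 1.59 (adjusted p = 0.000745). When any single library other than HMO 2 was left out the lowest adjusted p of any gene was 0.0751 or more. Outside these groups PAX6 stood at 6.71 FPKM in LLO 4, 6.24 in LLO 5 and 3.81, 1.71 and 2.89 in LSO 1, 3 and 4, and at 1.77 FPKM or less in every other library.

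Of the 126 assignments of the group labels, 1 places every HMO library above every HSO library and 1 the reverse. With no stage difference, a share of 0.00794 of genes is thus expected to separate in each direction. Whether the observed shares exceed that level was not tested. Complete separation of the 2 groups was seen for 80 genes higher in HMO (0.971% of those tested) and 97 higher in HSO (1.18%), 177 genes in all (2.15%). Of these, 22 and 20 also met the counting limits. The genes named next are those with the largest change among them that carry a symbol held by 1 gene only, excluding provisional LOC symbols, 12 in each direction. Apart from PAX6 none passed the adjusted threshold in the fit without a block.

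SLC16A11, a member of the monocarboxylate transporter family, had 5.43, 3.07, 5.16, 6.96 and 3.80 FPKM in HMO 1 to 5 and 1.82, 1.06, 0.957 and 1.32 FPKM in HSO 1, 3, 4 and 5. HMO 2 was the lowest HMO library and still above all of HSO. The log2 fold change was 1.34 ± 0.25 (SE), with a limma adjusted p of 0.264 and of 0.00467 with the block.

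HYPK, a ribosome-associated partner of the N-terminal acetyltransferase NatA, was among the abundant mRNAs. It stood at 395, 369, 633, 488 and 396 FPKM in HMO 1 to 5 and at 138, 256, 184 and 121 FPKM in HSO 1, 3, 4 and 5. The groups did not overlap and HMO 2 was again the lowest of HMO. Its log2 fold change was 1.41 ± 0.29 (SE), with a limma adjusted p of 0.351 and of 0.000197 with the block.

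CALML4, a calmodulin-like protein, was 5.14 to 12.6 FPKM in HMO (HMO 2 at 5.39) against 2.32 to 3.19 in HSO. CADM1, a cell adhesion molecule of the immunoglobulin family, was 11.9 to 33.2 FPKM in HMO (HMO 2 at 14.4) against 4.60 to 10.5 in HSO. In both, HMO 2 lay inside the range of the other HMO libraries. The log2 fold changes were 1.13 and 1.32, with blocked limma adjusted p of 0.0195 and 0.00626.

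In the 7 remaining genes of this direction HMO 2 lay just above the highest HSO library and below the rest of HMO. GPX1, which reduces peroxides with glutathione, had 12.1, 6.59, 19.6, 15.7 and 11.2 FPKM in HMO 1 to 5 and 5.30, 5.90, 6.54 and 3.54 FPKM in HSO 1, 3, 4 and 5. RAB15, an endosomal GTPase, stood at 9.09 to 14.9 FPKM in HMO 1, 3, 4 and 5, at 4.87 FPKM in HMO 2 and at 2.62 to 4.74 FPKM in HSO. CXCL10, an interferon-induced chemokine, was 1.15 to 3.53 FPKM in HMO 1, 3, 4 and 5, 0.117 FPKM in HMO 2 and at most 0.107 FPKM in HSO. The same arrangement held for PCBD1, a dehydratase that recycles tetrahydrobiopterin (HMO 2 6.53 FPKM, highest HSO 5.33), LCMT2, a tRNA-modifying enzyme (0.804 and 0.788), WDR27, a WD-repeat protein (0.810 and 0.666), and DPP4, a cell surface dipeptidase (11.003 and 8.89). Separation in these genes is therefore narrow. Outside HMO and HSO, the genes GPX1, CXCL10, PCBD1, LCMT2 and WDR27 were higher in LLO 4 and LSO 1, 3 and 4 than in every other library. CXCL10 was at 5.57, 2.48, 1.46 and 2.51 FPKM there and at most 0.306 FPKM in the rest. LCMT2 was at 12.9, 8.71, 2.17 and 7.46 FPKM there and at most 1.53 FPKM in the rest. RAB15 was at 12.5 to 52.6 FPKM there, but LLO 2 and LMO 2 reached 13.2 and 13.7 FPKM.

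**Figure D2:**
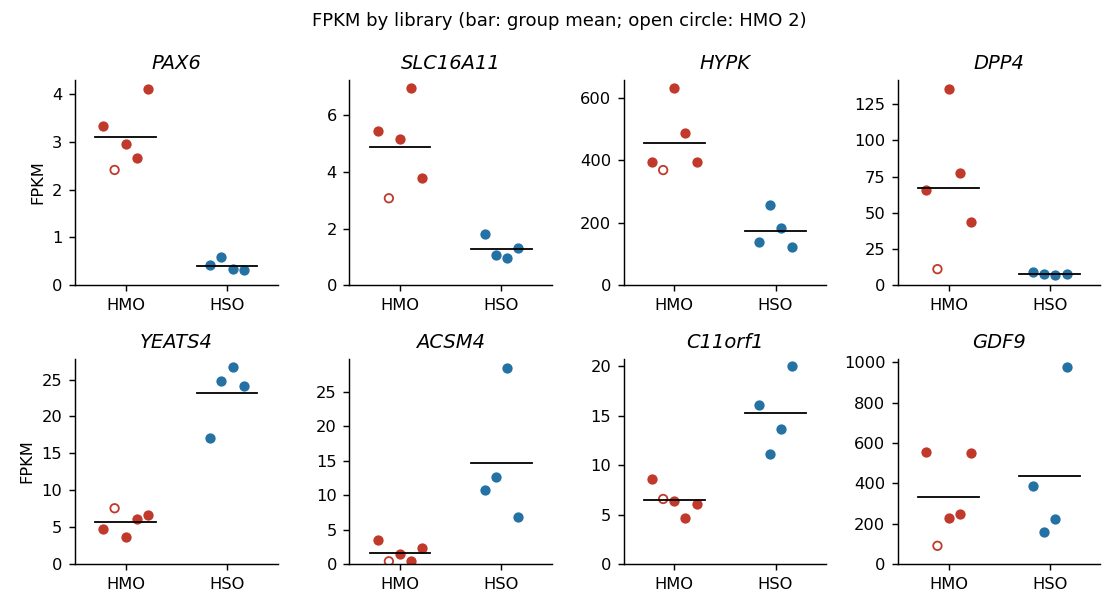
FPKM of 8 genes in each HMO (red, n = 5) and HSO (blue, n = 4) library, with the group mean as a bar, HMO 2 as an open circle and a linear axis from 0. PAX6, SLC16A11, HYPK, YEATS4, ACSM4 and C11orf1 are separated between the groups with HMO 2 on the side of HMO, DPP4 is separated narrowly at HMO 2, and GDF9 overlaps.

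In the opposite direction the genes were higher in the oocytes of small follicles. YEATS4, a reader of acetylated histones in the TIP60 and SRCAP chromatin complexes, had 4.73, 7.55, 3.71, 6.14 and 6.59 FPKM in HMO 1 to 5 and 17.0, 24.8, 26.7 and 24.2 FPKM in HSO 1, 3, 4 and 5. The lowest HSO library exceeded the highest HMO library by more than the whole range of HMO. Its log2 fold change was -1.86 ± 0.28 (SE), with a limma adjusted p of 0.14 and of 0.000547 with the block. 

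ACSM4, of the medium-chain acyl-CoA synthetase family, had 3.54, 0.380, 1.42, 0.476 and 2.34 FPKM in HMO 1 to 5 and 10.7, 12.7, 28.5 and 6.78 FPKM in HSO 1, 3, 4 and 5. The HSO libraries spread over a wide range, all above HMO. This corresponded to a log2 fold change of -2.55 ± 0.46 (SE), with a limma adjusted p of 0.264 and of 0.00993 with the block.

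C1orf146, the counterpart of the meiotic crossover factor SPO16, was 7.57, 17.8, 16.9, 15.2 and 8.48 FPKM in HMO 1 to 5 and 26.6, 50.0, 37.97 and 18.2 FPKM in HSO 1, 3, 4 and 5. HSO 5 lay just above HMO 2, so the separation was narrow. With a log2 fold change of -1.25 it had a blocked limma adjusted p of 0.00391. PNPLA4, a lipase that also acts on retinol esters, had 0.957 to 2.74 FPKM in HMO and 3.87 to 6.80 FPKM in HSO (log2 fold change -1.08). LVRN, a membrane aminopeptidase, was under 1 FPKM in all HMO libraries (0.0889 to 0.545) and 0.877 to 3.64 FPKM in HSO (log2 fold change -1.11). C11orf1 was 4.62 to 8.64 FPKM in HMO and 11.1 to 20.0 in HSO, and C1orf105 was 9.44 to 17.0 in HMO and 22.4 to 39.7 in HSO. The remaining 5 of these 12 genes were mitochondrially encoded. In 34 of the 45 genes higher in HSO by the counting limits, HMO 2 lay below every HSO library.

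Without HMO 2, 9 of these 24 named genes passed in limma. The adjusted p was 0.00174 for PAX6, 0.0135 for SLC16A11, 0.0021 for DPP4, 0.00404 for LCMT2, 0.0147 for CXCL10, 0.0318 for WDR27 and 0.0341 for RAB15 among those higher in HMO. Among those higher in HSO it was 0.00691 for YEATS4 (log2 fold change -1.95) and 0.0454 for ACSM4. The other 15 did not pass, HYPK at 0.0514, ND4 at 0.0716, GPX1 at 0.071 and COX3 at 0.118 among them. In each of the 7 that passed as higher in HMO, HMO 2 was the lowest of the HMO libraries, and in YEATS4 it was the highest of them. CXCL10 was over 0.5 FPKM in HMO 1, 3, 4 and 5 alone. It passed the expression limit only through these libraries, so its p-value is no test.

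Much of the HMO-higher count came from a set of genes that HMO 2 did not share. In 122 of the 151 genes higher in HMO by the counting limits, HMO 2 lay within or below the HSO range. 52 of the 151 were over 2 FPKM in each of HMO 1, 3, 4 and 5 and over 3 times the highest of HMO 2 and all HSO libraries. This set was chosen after its values were seen, so its difference among the 9 libraries is a description with no test. No gene met the reverse of this rule. The mean log2(FPKM + 1) over the 52 genes was 4.56, 4.30, 4.26 and 4.29 in HMO 1, 3, 4 and 5 and 0.94 in HMO 2. It was 1.08, 0.97, 1.15 and 1.09 in HSO 1, 3, 4 and 5, so HMO 2 was the lowest of the 9.

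The other 20 libraries, which the rule did not use, fell into the same high and low levels. The mean was 5.25 in LLO 4 and 4.76, 4.03 and 4.40 in LSO 1, 3 and 4. It lay between 0.67 and 1.28 in the other 16, which include all HLO and all LMO libraries. For 43 of the 52 genes, the lowest of LLO 4 and LSO 1, 3 and 4 exceeded the highest of those 16 libraries. High libraries were thus found in medium follicles of the high fertility goats and in small and large follicles of the low fertility goats, and the level did not follow stage or population as labelled.

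**Figure D3:**
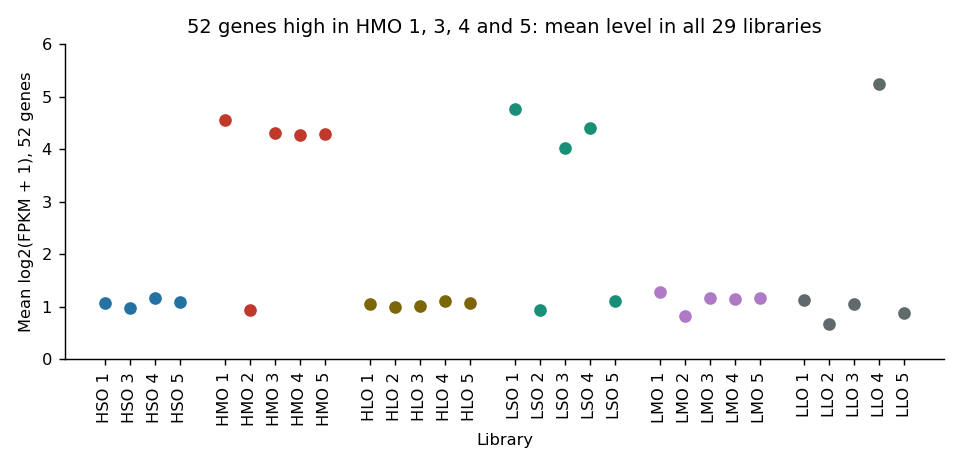
Mean log2(FPKM + 1) of the 52 genes in each of the 29 libraries, grouped by population and follicle stage, 1 point a library. 8 libraries lie at 4.03 to 5.25 (HMO 1, 3, 4 and 5, LSO 1, 3 and 4, and LLO 4), and the other 21, HMO 2 among them, lie at 0.67 to 1.28.

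Several kinds of gene made up the set. HSD17B2, which oxidises estradiol to estrone and was singled out by the study on these samples as highly variable, had 25.3, 0.0443, 12.7, 17.7 and 27.4 FPKM in HMO 1 to 5 and 0.0588, 0.121, 0.107 and 0.122 FPKM in HSO 1, 3, 4 and 5. It was therefore present in 4 of the 9 libraries and close to 0 in the rest. In LLO 4 and LSO 1, 3 and 4 it stood at 41.7, 18.5, 7.44 and 18.0 FPKM, and at 0.143 FPKM or less in the other 16. The log2 fold change between HMO and HSO was 3.38 ± 0.84 (SE), with a limma adjusted p of 0.399 and of 3.03e-06 with the block. Without HMO 2 the adjusted limma p was 6.91e-05, which for a gene chosen as higher in HMO 1, 3, 4 and 5 than in HMO 2 and HSO is no test, and the same holds for DPP4. HSD17B2 passed the expression limit only through HMO 1, 3, 4 and 5, so none of its p-values tests the difference.

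DPP4 had 65.9, 11.003, 135, 77.8 and 43.9 FPKM in HMO 1 to 5 against 6.64 to 8.89 FPKM in HSO. Its log2 fold change was 2.59 ± 0.59 (SE), with a limma adjusted p of 0.397 and of 6.32e-05 with the block. NR1H3, the oxysterol receptor LXR alpha, was 25.6 to 59.1 FPKM in HMO 1, 3, 4 and 5, 2.96 FPKM in HMO 2 and 3.16 to 6.37 FPKM in HSO. FKBP7, a prolyl isomerase of the endoplasmic reticulum, was 2.48 to 4.92 FPKM in those 4 libraries and 0.457 FPKM or less in the other 5.

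A large share of the set consisted of genes whose symbol is carried by more than one gene in the table. This held for 30 of the 52 (57.7%) against 15.1% of all genes tested, and among the 151 for 33.1%. By the study's methods only reads with a unique match to the genome were kept. Reads that match several genes alike are then not counted, so values of such copies are uncertain. How similar the genes of a shared symbol are was not examined. One of 2 genes labelled ATP5E, the epsilon subunit of ATP synthase, was at 57.3, 705, 450 and 79.0 FPKM in HMO 1, 3, 4 and 5 and was listed at 0 in HMO 2 and in all 4 HSO libraries. The second ATP5E gene was at 289 to 1112 FPKM in HMO and 290 to 996 FPKM in HSO, with no such split. RPS15A, RPS23, RPS6, RPL19, RPL7, RPS3A and RPS10, cytosolic ribosomal proteins with 4 to 11 genes of the same symbol, each had at least 1 copy in the set. When FPKM of genes with the same symbol were summed, 105 genes were higher in HMO and 42 higher in HSO by the counting limits, and the log2 fold changes of RPS23, RPL19, RPL7 and RPS6 fell between -0.15 and -0.01. 1 of its 21 single-copy genes that matched RefSeq overlapped another gene there (4.76%), where 24.8% of all such genes tested did, a difference that was not tested.

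The blocked fit compares the libraries by which the 52 genes were chosen, so it is no test of the set. At an adjusted limma p under 0.05 it passed 148 of the 151 genes higher in HMO and 32 of the 45 higher in HSO by the counting limits. HMO 2 lay above all HSO libraries in 55 of the 335 genes that the blocked fit placed higher in HMO, and below all HSO libraries in 44 of the 94 that it placed higher in HSO. Beyond the 52 genes, 99 of the 151 remained, with DPP4 and HSD17B2 among those removed and PAX6 and HYPK among those kept. Removing the 52 genes did not remove their pattern of libraries. HYPK was 924, 654, 797 and 480 FPKM in LLO 4 and LSO 1, 3 and 4. It was 746 FPKM in LLO 2 and at most 400 FPKM in the other libraries outside HMO and HSO. GPX1, CXCL10, PCBD1, LCMT2 and WDR27, also kept, were highest in LLO 4 and LSO 1, 3 and 4 outside HMO and HSO. PAX6 was at 6.71, 3.81, 1.71 and 2.89 FPKM in LLO 4 and LSO 1, 3 and 4. It reached 6.24 FPKM in LLO 5 and 1.77 FPKM in HLO 5, so its pattern was similar but not the same.

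Most mitochondrially encoded genes were higher in the oocytes of small follicles by the counting limits. Their summed share of FPKM did not pass 0.05 after adjustment (exact permutation adjusted p = 0.0714). The mitochondrial genome encodes 13 subunits of the respiratory chain and of ATP synthase, and all 13 were tested. 11 of the 13 were higher in HSO by the counting limits, where 0.546% of all genes were, and none was higher in HMO. Their median log2 fold change was -2.45, with a range from -4.23 to -1.03, against -0.10 over all genes. The blocked limma fit passed 12 of the 13 as higher in HSO at an adjusted p under 0.05, where 1.14% of all genes were, the fit without a block none.

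COX3, a subunit of cytochrome c oxidase, was the most abundant, with 135, 162, 86.5, 44.2 and 31.7 FPKM in HMO 1 to 5 and 223, 1585, 770 and 207 FPKM in HSO 1, 3, 4 and 5. All HSO libraries lay above all HMO libraries, and HSO 3 and HSO 4 far above the other 2. Its log2 fold change was -2.65 ± 0.69 (SE), with a limma adjusted p of 0.407 and of 0.00349 with the block. ND4, a subunit of complex I, was separated in the same way, with 38.7, 32.1, 23.9, 11.5 and 11.5 FPKM in HMO and 89.0, 252, 112 and 55.6 FPKM in HSO. Its log2 fold change was -2.32 ± 0.51 (SE), with a limma adjusted p of 0.355 and of 0.00117 with the block.

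COX1, ND5 and ND4L were also separated between the groups. In the other 8 genes, among them ND1, ATP6 and CYTB, HSO overlapped with HMO. ATP6 was 5.83 to 30.6 FPKM in HMO and 34.5, 1130, 440 and 21.3 FPKM in HSO 1, 3, 4 and 5, so that HSO 5 lay inside the HMO range. ATP8, which overlaps ATP6 on the mitochondrial genome, was listed at 0 in HMO 1, 2 and 5 and HSO 1 and stood at 1322 and 576 FPKM in HSO 3 and HSO 4. Neighbouring mitochondrial genes share sequence, and reads in the overlaps of ATP8 with ATP6 or ND4L with ND4 cannot be assigned to one of them.

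**Figure D4:**
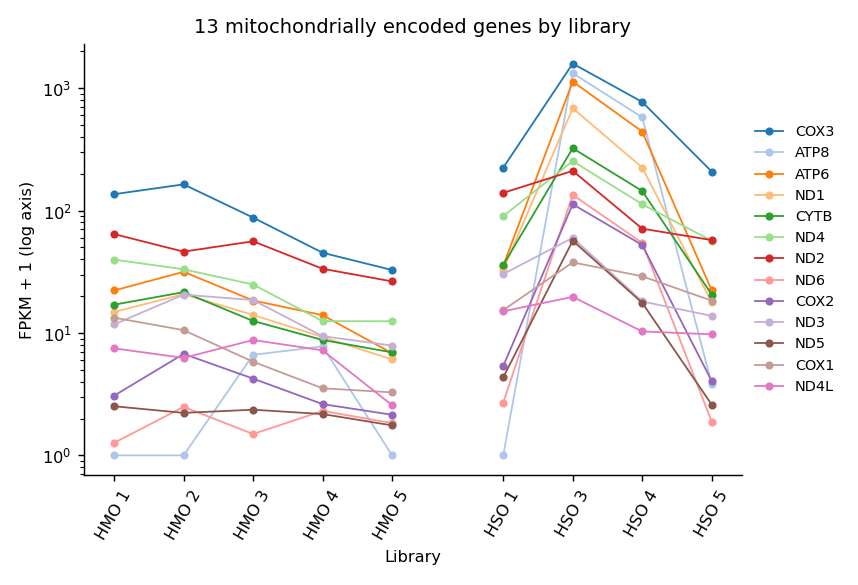
FPKM + 1 on a log axis for the 13 mitochondrially encoded genes in each HMO and HSO library, with a line joining the values of 1 gene within a group. HSO 3 and HSO 4 hold the highest values of most genes, and HSO 1 and HSO 5 lie closer to HMO.

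Summed over the 13 genes, these transcripts took 0.0656%, 0.0894%, 0.0538%, 0.0305% and 0.0222% of all FPKM in HMO 1 to 5 and 0.138%, 1.37%, 0.609% and 0.0948% in HSO 1, 3, 4 and 5. The groups did not overlap, although HMO 2 and HSO 5 were close. The HMO mean was 0.0523% ± 0.0271 (SD, n = 5) and the HSO mean 0.554% ± 0.594 (SD, n = 4), with an exact permutation p of 0.00794, the smallest that 126 assignments can give, and an adjusted p of 0.0714 over 9 sample measures, which did not pass 0.05. As 1 of 42 summed lists the same genes had an adjusted p of 0.333 (exact permutation p = 0.00794). The difference in mitochondrial percent, HMO minus HSO, was -0.501 over the 9 libraries and -0.228 without HSO 3. Without HSO 3 the count of genes higher in HSO was 7 of 13 (median log2 fold change -1.84), and without HSO 4 it was 9 of 13 (median -2.28). All 13 log2 fold changes were below 0 in every leave-one-out repeat. In the low fertility goats the share was 0.0867% to 1.10% in LMO and 0.0347% to 0.967% in LSO, with an exact permutation p of 0.786 for their difference. In bulk pools, fewer mitochondria and fewer transcripts in each mitochondrion cannot be told apart. Summed granulosa markers averaged 24.1 FPKM in HMO and 35.8 FPKM in HSO (exact permutation p = 0.0238, adjusted p = 0.50 over 42 lists). Of these markers GJA1 went the other way. The part of other cells in the mitochondrial difference was not tested.

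Nuclear genes encode most subunits of the same complexes. Of 74 tested nuclear genes of the respiratory chain, 3 were higher in HMO by the counting limits (1.83% of all genes were) and none in HSO, and the median log2 fold change was 0.12. The 3 were copies of ATP5E, ATP5G2 and NDUFA4, whose symbols are all shared and of which the first 2 belong to the set of 52. NDUFA6, the most abundant, was 1683 to 3541 FPKM in HMO and 1208 to 4157 FPKM in HSO, and the groups overlapped. The blocked limma fit passed 11 of the 74 higher in HMO (4.07% of all genes were) and 1 higher in HSO (1.14%). Of 70 mitochondrial ribosomal protein genes 2 were higher in HMO (MRPL18 and MRPS33) and 5 with the block, and the median was 0.00.

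Ribosomal protein genes held the highest number of HMO-higher calls among the lists of gene families. 13 of 138 cytosolic ribosomal protein genes tested were higher in HMO by the counting limits (1.83% of all genes were) and none in HSO (0.546%), with a median of 0.22. All 13 carried a shared symbol, and 10 were in the set of 52. Without the 10 the median was 0.21. With the block 20 of the 138 passed higher in HMO, where 4.07% of all genes did, and 1 higher in HSO (1.14%). FAU, the most abundant, overlapped between the groups, at 3601 to 9831 FPKM in HMO and 2899 to 7896 FPKM in HSO (log2 fold change 0.28, limma adjusted p = 0.968).

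Genes of oocyte identity and of follicle signalling were read against 1.83% of all genes higher in HMO and 0.546% higher in HSO by the counting limits. None of 14 oocyte factors, 6 genes of the subcortical maternal complex, 36 genes of maternal mRNA handling, 33 meiotic cell cycle genes, 33 cohesin and spindle genes, 7 DNA methylation genes, 17 genes of TGF-beta and BMP signalling and 12 Notch genes met the counting limits in either direction. Their medians lay between -0.29 and 0.00. With shares this low over all genes, lists of this size hold few calls or none, and a missed threshold does not show that they were equal. In the blocked limma fit ZAR1, a maternal factor, passed higher in HMO (adjusted p = 0.0499) and MAP2K1, a kinase of the MAPK cascade, higher in HSO (adjusted p = 0.0301).

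GDF9 was 556, 89.8, 226, 246 and 551 FPKM in HMO 1 to 5 and 387, 160, 221 and 974 FPKM in HSO 1, 3, 4 and 5. High values were found in replicates 1 and 5 of both stages, and the stages overlapped. The log2 fold change was -0.31 ± 0.64 (SE), with a limma adjusted p of 0.97. BMP15 was 79.3, 235, 91.9, 79.3 and 121 FPKM in HMO and 98.1, 118, 184 and 201 FPKM in HSO (log2 fold change -0.38, limma adjusted p = 0.968). ZP3 and ZP4, zona pellucida glycoproteins, were highest in HSO 5, at 5318 and 1835 FPKM, against at most 1543 and 622 FPKM in the other 8 libraries. OOEP, of the subcortical maternal complex, had 78.3 to 227 FPKM in HMO and 7.55 to 140 FPKM in HSO, HSO 3 being the lowest (log2 fold change 1.27, limma adjusted p = 0.932).

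The spread of several oocyte mRNAs was larger among libraries of a stage than between stages. EIF4E, the cap-binding translation factor, was 1015 and 988 FPKM in HMO 1 and HMO 5 and 87.9 to 222 FPKM in HMO 2, 3 and 4. In HSO it was 614 and 906 FPKM in HSO 1 and HSO 5 and 89.3 and 250 FPKM in HSO 3 and HSO 4. GRHPR, a glyoxylate reductase, CASP6, an executioner caspase, and BTG4, which recruits the deadenylase for maternal mRNA decay, were likewise higher in replicates 1 and 5 of both stages than in the other libraries. These are the libraries with negative scores on PC1, and they had 8130 to 8452 genes over 0.5 FPKM against 7102 to 7980 in the other 5.

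Other families gave at most 1 or 2 calls without the block, where 1.83% of all genes were higher in HMO and 0.546% higher in HSO. GPX1 was the only one of 23 antioxidant genes higher in HMO, ATF6, a sensor of endoplasmic reticulum stress, the only one of 15 genes of that pathway (0.680 to 8.37 FPKM against 0.595 to 2.10, HMO 2 lowest of HMO), and HMGB2 the only one of 27 chromatin genes. RAB15 was 1 of 33 RAB GTPases, SLC16A11 1 of 124 solute carriers and ZNF567 1 of 91 zinc finger genes, the last higher in HSO with 2.07 to 6.63 FPKM against 0.705 to 1.78. With the block, where 4.07% of all genes were higher in HMO, 4 of the 23 antioxidant genes passed (GPX1, PRDX5, GLRX and GPX4), 3 of 124 solute carriers, 3 of 64 splicing genes, 3 of 25 genes of PI3K and mTOR signalling and 2 of 27 chromatin genes, and no other family outside respiration and translation had more than 1 in HMO. Higher in HSO with the block were 2 of 91 zinc finger genes and 1 of 27 DNA repair genes, where 1.14% of all genes were, so these are single genes near the share of all genes. The 2 unblocked calls among 25 genes of PI3K and mTOR signalling were copies of RPS6. Glycolysis (27 genes), heat shock (37), DNA repair (27), proteasome (47), splicing (64), translation initiation (46), kinesins (25), nucleoporins (32), cell junctions (9), fatty acid (20), calcium (15), apoptosis (8), deubiquitinase (33), ubiquitin-conjugating (30), N6-methyladenosine (14) and PIWI pathway (15) genes had no call without the block.

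**Figure D5:**
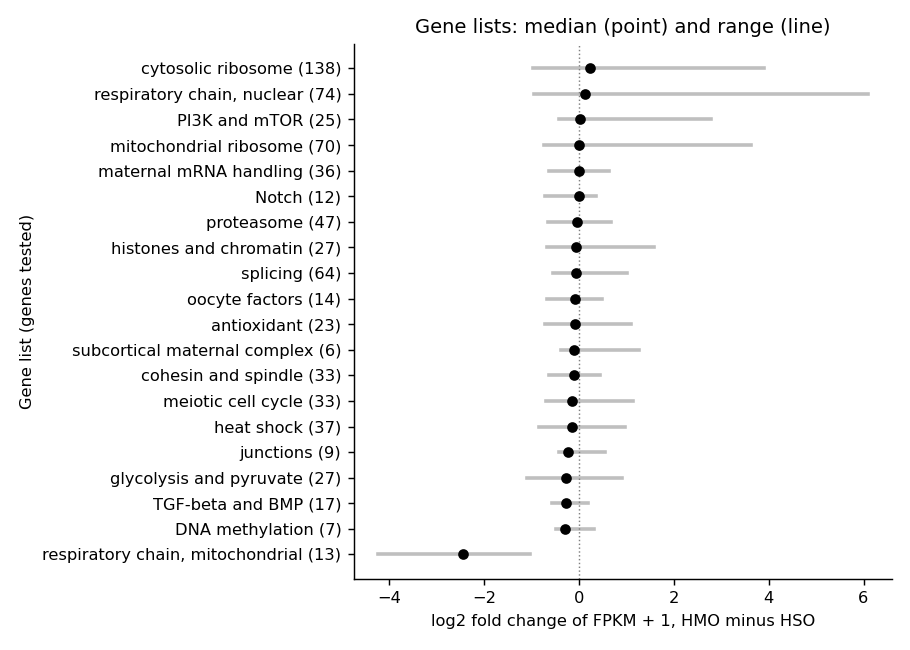
Median (point) and range (line) of log2 fold changes of FPKM + 1, HMO minus HSO, for 20 gene lists with the number of genes tested in brackets. The mitochondrially encoded genes lie at a median of -2.45, and the other medians lie between -0.29 and 0.22.

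Among receptors and ligands described for goat oocytes, HES1, a Notch target, was 22.6 to 88.7 FPKM in HMO and 16.8 to 68.9 in HSO, and JAG1, a Notch ligand, 12.03 to 31.2 and 9.55 to 27.9. ID3, a BMP target, was 15.6 to 35.3 in HMO and 11.5 to 29.5 in HSO. The connexins GJC1 and GJA4 and the BMP receptors BMPR1A, BMPR1B and BMPR2 were under 7 FPKM in all 9 libraries, with log2 fold changes from -0.39 to 0.10. DLL3, JAG2, NOTCH3 and ID4 were below the expression limit. DLL3, a Notch ligand, was over 0.5 FPKM in 3 HMO libraries (2.21, 0.600 and 0.534 FPKM in HMO 1, 3 and 4) and at most 0.102 FPKM in HSO. GPD1 was listed at 0 in all 9 libraries. Of the oocyte markers named by the study, CYB5A, ERAL1, GPR84 and GRHPR had log2 fold changes of -0.15, -0.59, -0.92 and -0.14 and none met the counting limits.

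Markers of other ovarian cells were low, and none of their summed lists passed an adjusted exact permutation p of 0.05. In the fit without a block no marker gene passed an adjusted limma p of 0.05. Among 24 granulosa marker genes measured, 19 were at 0.5 FPKM or below in all 9 libraries and 6 were at 0 in all, AMH, AMHR2 and NR5A1 among them. FSHR was at most 0.111 FPKM and CYP19A1 at most 0.241 FPKM. The summed granulosa list was 21.1, 24.7, 18.2, 26.3 and 30.2 FPKM in HMO 1 to 5 and 28.6, 34.4, 40.4 and 39.7 FPKM in HSO 1, 3, 4 and 5. HSO was higher in 3 of its 4 libraries than any HMO library (exact permutation p = 0.0238, adjusted p = 0.50 over 42 lists). STAR, which carries cholesterol into mitochondria, was the most abundant of them, with 8.54 to 15.6 FPKM in HMO and 12.5 to 26.2 FPKM in HSO (log2 fold change -0.78, limma adjusted p = 0.693, with the block 0.0483). GJA1, a gap junction protein and another of the 4 granulosa markers tested, had 0.385 to 1.73 FPKM in HMO and 0.258 to 0.611 FPKM in HSO and passed the blocked fit in the opposite direction (log2 fold change 0.55, limma adjusted p = 0.631, with the block 0.0289). STAR alone averaged 12.3 FPKM in HMO and 22.1 FPKM in HSO, where the summed list averaged 24.1 and 35.8 FPKM. Much of the summed difference therefore lay in 1 gene. Which cells these transcripts came from was not tested, and neither was their part in the other results.

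MGP, a matrix protein and the most abundant of 12 theca and stroma genes, was 34.5, 11.3, 13.8, 7.95 and 12.03 FPKM in HMO and 36.9, 19.6, 25.6 and 49.1 FPKM in HSO. HMO 1 lay within the HSO range. It was higher in HSO by the counting limits (log2 fold change -1.09), with a limma adjusted p of 0.684 and of 0.088 with the block. COL1A1 and INSL3 of the same list were listed at 0 in all 9. Summed marker levels of leukocytes (SRGN most abundant) were 8.48 to 15.6 FPKM in HMO and 7.38 to 20.1 in HSO, of erythroid cells (AHSP most abundant) 5.83 to 13.6 and 8.67 to 23.99, and of endothelial cells (TEK) 1.29 to 3.38 and 2.69 to 3.42. AHSP alone had a log2 fold change of -0.81, with a limma adjusted p of 0.881 and of 0.0494 with the block. FABP1, a fatty acid binding protein taken as an enterocyte marker, was 0.705 to 1.44 FPKM in HMO and 0.420, 0, 0 and 0 in HSO 1, 3, 4 and 5. Its log2 fold change of 0.88 was under the fold limit. The limma adjusted p was 0.264, with the block 0.0074 and without HMO 2 0.0341. FABP1 passed the expression limit only through HMO libraries, so none of its p-values tests the difference.

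The same stages were compared in the low fertility goats, where most of these genes had a log2 fold change of the opposite sign. LMO against LSO, which share no library with HMO and HSO, gave 15 genes higher in LMO (0.182%) and 116 higher in LSO (1.41%) by the counting limits, and 0 at an adjusted limma p under 0.05 (234 at an unadjusted p under 0.05). Of the 151 genes higher in HMO, 145 had a log2 fold change below 0 between LMO and LSO, and of the 45 genes higher in HSO, 39 had one above 0. Over all 8240 genes 44.8% were above 0. Across genes the 2 sets of log2 fold changes had a Spearman correlation of -0.56, given as a description since genes of the same libraries are not independent. LSO 1, 3 and 4 are the libraries in which the set of 52 genes was high.

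The difference between the populations was tested as an interaction in 1 limma fit over 19 libraries. 690 genes (8.37%) had an unadjusted p under 0.05 and 0 genes an adjusted p under 0.05. With the replicate number as a block shared by the 4 groups 332 genes passed. Whether numbers pair libraries of the low fertility goats or across populations was not tested. Leaving out HMO 2, LSO 2 or LSO 5 gave 136, 99 and 108 genes, and leaving out any of the other 16 libraries gave 0. Of these, 50, 45 and 41 genes belong to the set of 52, as do 51 of the 332, and that set was chosen by HMO and HSO libraries that enter the fit. PAX6 had an interaction of 2.19 ± 0.40 (SE, log2) with a limma adjusted p of 0.0767. YEATS4 had one of -3.08 (adjusted p = 0.0926), with 6.19 to 35.0 FPKM in LMO and 5.88 to 34.9 FPKM in LSO, 4 of the 5 LSO libraries lying under 9 FPKM. HYPK had one of 2.51 (adjusted p = 0.0926), with 134 to 288 FPKM in LMO and 178 to 797 in LSO. The mitochondrially encoded genes had a median log2 fold change of 0.21 between LMO and LSO, against -2.45 between HMO and HSO.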

How the data were processed

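The authors sequenced samples of a few oocytes, counted uniquely matched reads and deposited FPKM per Ensembl gene from Cufflinks; the aligner version and the genome build are not given in the sources used here. 1 column of per-sample values that matched no label was not used. Genes over 0.5 FPKM in at least 4 of the 9 libraries were tested with limma 3.58.1 (trend) in R 4.3.3 on log2(FPKM + 1), two-sided, with Benjamini-Hochberg adjustment, so fold changes of low genes are understated. Sample measures were tested by exact permutation. Same-numbered libraries deviated together (4 pairs, r from 0.28 to 0.73). The main fit had no block, and a fit with the replicate number as a block is given beside it. That pairing was taken from the data and not from the labels. No 2 libraries were identical. Genes were named by a rule: adjusted calls, the 12 largest separated changes each way, the most abundant and up to 4 called members of each of 42 lists, and the oocyte genes of the study. Genes, lists and members were chosen with earlier results of these data known. Gene overlaps came from RefSeq (ARS1.2) names. Tests were tried on simulated data.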

Additional observations from a re-analysis of the deposited data

Results flagged for a closer look

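Within groups of 4 or 5 libraries, a single library was far from the others by Dixon's criterion, which chance meets in about 1 of 20 groups, in these cases. The criterion was applied in both groups to sample measures and to called or study-named genes among the 95 named genes tested. Several such cases are therefore expected by chance. HMO 2 scored 22.3 on PC2, next to -20.5 in the nearest HMO library. BMP15 in HMO 2 was 235 FPKM, against 121 FPKM in the next. MGP in HMO 1 was 34.5 FPKM, against 13.8 FPKM in the next. The distance of HMO 4 from its group centroid was the lowest of HMO, 36.5 against 50.5 in the next. ZP4 in HSO 5 was 1835 FPKM, against 414 FPKM in the next. The RPS15A copy of the set of 52 was 0.182 FPKM in HSO 4 and 0 in the other HSO libraries, where any value above 0 meets the criterion. Outside the libraries compared, the set of 52 genes had a mean log2(FPKM + 1) of 5.25 in LLO 4, the highest of all 29, where HLO libraries reached at most 1.10. The causes were not tested.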

How the results depend on the processing

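Limits of these results are values without read counts, 5 against 4 samples drawn from 1 collection of oocytes a stage, and 1 library, HMO 2, that decides many adjusted calls. The count of genes higher in HMO by the counting limits, 151, became 262 with the replicate block, 57 with an exact Wilcoxon test (whose smallest p is 0.0159) and 99 without the 52 genes chosen after seeing the data. The count higher in HSO, 45, became 111 with a pseudocount of 0.1, 204 with array weights, 77 with the replicate block and 28 in 1 fit over 29 libraries. The count of adjusted calls, 1, became 429 with the replicate block, 54 with array weights, and 0 without a filter on low values, with the Wilcoxon test or in the fit over 29 libraries (998, 335 and 280 genes at an unadjusted p under 0.05, limma or Wilcoxon). In the interaction, the count of adjusted calls, 0, became 332 with the replicate block and 224 with array weights. The other settings tried (pseudocount 0.5, a filter of 1 FPKM or on the mean, median-of-ratios factors, quantile normalization, 1 gene per symbol) kept the first 3 of these counts within 1.5 times.

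Leaving out 1 library gave 125 to 219 genes higher in HMO, 39 to 150 higher in HSO (the highest without HSO 3), 0 to 136 adjusted calls and 0 to 136 in the interaction. The HMO minus HSO difference then ranged from -350.5 to 99.5 in genes over 0.5 FPKM, from -17.6 to 37.9 in the PC1 score, from -47.7 to -31.5 in the PC2 score and from -6.19 to 8.88 in the distance to centroid. The difference in mitochondrial percent ranged from -0.654 to -0.228, the smallest without HSO 3. Its unadjusted exact p was then the lowest each repeat allows, which says nothing about stability. With FPKM scaled per gene, the PC2 difference was -46.98 (exact permutation p = 0.0556).

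With genes of 1 symbol summed, 8 of the 43 called genes among those named changed sign. The log2 fold change became -0.012 for RPS23, -0.076 for RPL19, -0.15 for RPL7, -0.15 for ATP5G2, -0.14 for both RPS6 copies, -0.31 for NDUFA4 and -0.055 for HMGB2, since the sum is carried by other copies. No other setting, the replicate block included, changed the sign of a called named gene.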
